A study of Mus musculus with 16 samples.

Results

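CpG-rich promoters of single protein-coding genes were examined in the open chromatin of activated mouse B cells. Overlapping or touching ATAC-seq peaks from 8 libraries were joined into 16566 combined regions, and a region belonged to this class when its centre lay between 1000 bp upstream and 100 bp downstream of a protein-coding transcription start site, when coding genes did not start on both strands within 1000 bp of it, and when the sequence 500 bp to either side of the centre held at least 50% GC and a CpG observed/expected ratio of at least 0.6. This ratio compares the number of CG dinucleotides with the number that the C and G content of the sequence would give. The rule was met by 5601 regions, 33.8% of all combined regions. They served 5522 different nearest genes, of which 76 had more than 1 such region, and 2827 of them lay on the plus strand. The remaining regions were 1440 CpG-poor single coding promoters, 1075 promoters between coding genes on both strands, 1213 promoters of noncoding transcripts and 7237 regions away from promoters, here called distal.

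ATAC-seq, in which the Tn5 transposase cuts accessible DNA and attaches sequencing adapters to it, had been performed on splenic B cells of C57BL/6 mice of 7 to 14 weeks that carried CD23-Cre (+/-) together with Brg1fl/+ (4 libraries) or Brg1fl/fl (4 libraries). CD23-Cre deletes floxed alleles in mature B cells of the spleen. By genotype, the Brg1fl/+ cells used for comparison lack 1 allele of the Brg1 gene, Smarca4, and the Brg1fl/fl cells lack both. The study reports reduced Brg1 protein in B cells of its CD23-Cre Brg1fl/fl cross, and how complete the deletion was in these libraries was not tested. No library without Cre was among the ATAC-seq samples, and the number of mice behind the 4 libraries of a genotype is not given in the sources used here. The cells had been isolated with CD43 beads and cultured with IL-4 (20 ng/mL) and LPS (10 µg/mL), for 72 hours by the sample labels and 96 hours by the series design, and each library was made from 50000 cells.

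CpG-rich promoters, most of which are CpG islands, serve the genes that nearly every cell uses and many genes that regulate development. They are mostly free of DNA methylation, seldom carry a TATA box, and in active genes keep a short stretch without nucleosomes just upstream of the start site, where factors such as SP1, NFY, ETS proteins and NRF1 bind. Brg1 is the ATPase of the SWI/SNF (BAF) complexes, which slide and evict nucleosomes at enhancers and promoters.

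The sequences of 10 of these promoters are shown to make the class and its contrasts concrete. Each run is the 150 bases before an annotated start site of the gene, 5′ to 3′ on the strand of the gene, in GRCm38 (mm10). The start site is the one nearest the centre of the region, except at Ccnb1. There it was moved 84 bp upstream because an annotated exon reached into the stretch. Capitals mark matches to any of the 18 transcription factor motifs described below. The 10 promoters were chosen with the results known. Pigv, Scaf11, Hnrnpa0 and Rel stand for promoters with higher peaks in Brg1fl/fl, H2-Q7, Ppara, Cdc6, Ccnb1 and Irf8 for promoters with lower peaks, and Smarca4 is the deleted gene itself.
Pigv (chr4:133672648-133672797, minus strand): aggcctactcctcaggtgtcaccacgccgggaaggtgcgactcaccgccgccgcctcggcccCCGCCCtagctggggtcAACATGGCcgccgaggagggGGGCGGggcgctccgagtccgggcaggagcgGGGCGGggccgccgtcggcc
Scaf11 (chr15:96460844-96460993, minus strand): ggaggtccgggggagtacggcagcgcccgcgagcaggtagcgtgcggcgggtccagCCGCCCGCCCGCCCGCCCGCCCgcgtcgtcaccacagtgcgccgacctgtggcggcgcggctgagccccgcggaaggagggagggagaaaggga
Hnrnpa0 (chr13:58128557-58128706, minus strand): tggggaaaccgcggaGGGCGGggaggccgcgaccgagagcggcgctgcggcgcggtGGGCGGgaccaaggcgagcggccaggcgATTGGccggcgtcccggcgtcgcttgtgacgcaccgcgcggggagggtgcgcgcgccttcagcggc
Rel (chr11:23770971-23771120, minus strand): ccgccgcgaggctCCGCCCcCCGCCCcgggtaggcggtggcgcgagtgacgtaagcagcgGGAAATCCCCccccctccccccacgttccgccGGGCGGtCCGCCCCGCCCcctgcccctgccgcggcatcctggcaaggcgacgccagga
H2-Q7 (chr17:35439005-35439154, plus strand): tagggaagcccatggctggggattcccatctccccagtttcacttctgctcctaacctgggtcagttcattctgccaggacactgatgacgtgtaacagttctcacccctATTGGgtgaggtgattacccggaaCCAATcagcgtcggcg
Ppara (chr15:85735414-85735563, plus strand): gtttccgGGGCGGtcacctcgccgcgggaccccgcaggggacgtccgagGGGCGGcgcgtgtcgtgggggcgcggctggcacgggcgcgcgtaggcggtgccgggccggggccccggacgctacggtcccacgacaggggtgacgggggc
Cdc6 (chr11:98907651-98907800, plus strand): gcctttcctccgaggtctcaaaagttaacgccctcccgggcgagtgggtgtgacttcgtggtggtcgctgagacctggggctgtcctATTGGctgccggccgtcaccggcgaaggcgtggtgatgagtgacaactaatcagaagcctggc
Ccnb1 (chr13:100786571-100786720, minus strand): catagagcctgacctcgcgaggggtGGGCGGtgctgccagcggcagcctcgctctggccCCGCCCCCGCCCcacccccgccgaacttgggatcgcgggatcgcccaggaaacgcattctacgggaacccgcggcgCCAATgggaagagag
Irf8 (chr8:120736208-120736357, plus strand): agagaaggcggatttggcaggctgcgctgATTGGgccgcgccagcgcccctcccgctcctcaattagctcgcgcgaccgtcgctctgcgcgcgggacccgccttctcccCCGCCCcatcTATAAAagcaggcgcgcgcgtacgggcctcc
Smarca4 (chr9:21616019-21616168, plus strand): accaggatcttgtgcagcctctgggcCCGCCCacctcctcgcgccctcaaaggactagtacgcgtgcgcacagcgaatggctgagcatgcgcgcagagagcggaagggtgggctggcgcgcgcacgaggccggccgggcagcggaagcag
The GC content of these stretches ran from 54.7% for H2-Q7 to 81.3% for Ppara, and they held between 5 (H2-Q7) and 28 (Hnrnpa0) CG dinucleotides. The Scaf11 stretch carries 5 overlapping GC boxes in a row and no CCAAT box. In H2-Q7 the pattern is the opposite, with 2 CCAAT boxes and no GC box, and the Cdc6 stretch likewise holds a CCAAT box alone. A TATA box was found only in the Irf8 stretch among these 10, beginning at base -31 from the start site. The Rel promoter, which drives the NF-kB subunit c-Rel, holds a match to the NF-kB motif itself between its GC boxes. The motif shares that follow were taken within 100 bp of the highest summit. That summit lay at -284 bp for Scaf11, -282 bp for Hnrnpa0 and -293 bp for Rel. The stretches printed for these genes therefore lie outside the window searched for the shares.

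The motifs were searched by their letters on both strands within 100 bp of the highest summit of each region, as a description of sequence and not of binding. The GC box (GGGCGG, bound by SP1 and related factors) was present at 75.3% of the CpG-rich promoters, against 67.9% of all promoter regions and 21.7% of the distal regions. The CCAAT box (CCAAT, bound by NFY) was present at 33.8%, against 33.7% of all promoter regions and 21.4% of the distal ones. ETS motifs (CCGGAAG) were found at 18.3% of the CpG-rich promoters, 18.0% of all promoter regions and 5.72% of the distal regions. The E-box (CACGTG) was at 9.44%, 8.88% and 5.01%, and the YY1 motif (AANATGGC) at 7.71%, 7.34% and 6.74%. Promoters with coding starts on both strands held these 3 motifs at 26.4%, 8.94% and 10.2%. Rarer motifs at the CpG-rich promoters were E2F (GGCGGGAA, which overlaps the GC box) at 4.18% (3.63% of all promoter regions) and the CRE (TGACGTCA) at 3.79% (3.61%). THAP11 was at 2.96% (3.67%), NRF1 at 2.71% (2.26%) and BANP at 1.32% (1.17%). For THAP11 the share was 5.56% at CpG-poor promoters and 5.96% at those with coding starts on both strands. The rule itself selected for C, G and CG, so the excess of motifs made of these letters is partly fixed by it.

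Motifs of factors that act at B cell enhancers were scarce at these promoters. AP-1 (TGANTCA) was found at 1.66% of them and 8.03% of the distal regions, RUNX (TGTGGTTT) at 0.357% and 2.99%, NF-kB at 1.20% and 3.62%, ISRE at 0.911% and 3.26%, the octamer (ATGCAAAT) at 0.946% and 2.94%, and PU.1 (GAGGAAGT, which shares its core with the ETS motif) at 1.61% and 3.77%. This scarcity was shared with the promoters with coding starts on both strands. There AP-1 was at 2.33%, RUNX at 0.0931%, NF-kB at 1.40%, ISRE at 1.30%, the octamer at 0.745% and PU.1 at 1.86%. The TATA box (TATAAA) was present at 1.96% of the CpG-rich promoters against 5.29% of the distal regions. The CHR (TTTGAA), an element of cell cycle promoters, was at 4.48% against 8.49%. The rule selected against A and T, so the scarcity of motifs rich in these letters is partly fixed by it. In position, CCAAT boxes lay further upstream, with a median of -88.0 bp from the start site (interquartile range -149 to -48.0), than ETS motifs at -39.5 bp, while the median match to YY1 lay at -3.5 bp, next to the start. At least 3 different motifs were present at 1018 promoters (18.2%), and none of the 18 at 375 (6.70%).

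Along the genes, the peaks sat just before the start. The median region was 629 bp wide (interquartile range 503 to 759 bp), and 5332 of 5601 (95.2%) covered the start site. The highest summit lay at a median of -69 bp, with 83.2% of the summits upstream of the start and 62.6% within 100 bp of it. The centres, which the rule had already confined, had a median of -14 bp. In 1007 regions (18.0%) a noncoding transcript also started within 1000 bp.

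**Figure D1:**
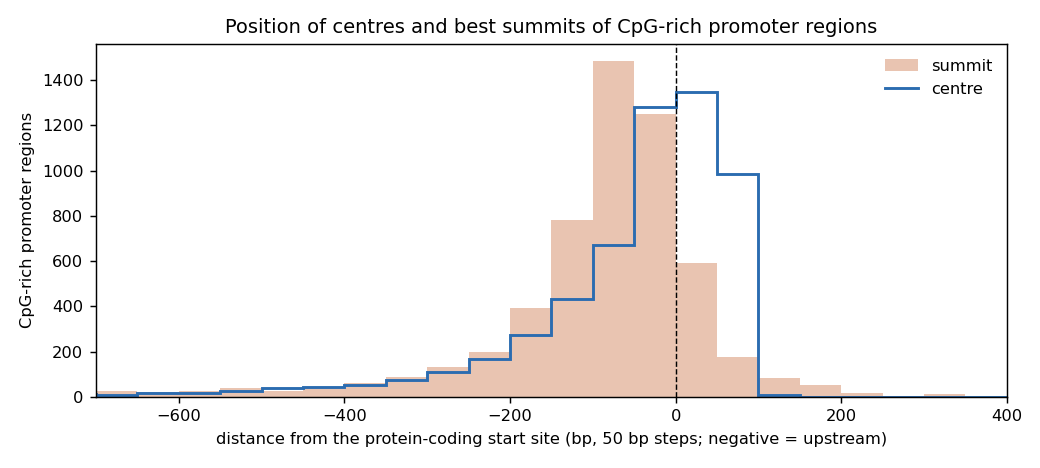
Number of CpG-rich promoter regions (y axis) by distance of their centre (blue line) and of their highest summit (filled) from the protein-coding start site in 50 bp steps (x axis, negative upstream). The tallest step of the summits, 1485 regions, lies 100 to 50 bp upstream, whereas the tallest step of the centres, 1349 regions, lies 0 to 50 bp downstream; the sharp end of the centres at 100 bp is set by the rule.

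Of the 10922 protein-coding genes with a start site in CpG-rich sequence, 7411 (67.9%) had a promoter region in at least 1 library, against 1371 of 10901 genes (12.6%) without such a start. Not every CpG-rich start came with a peak. Of 148 genes of the Hox, Lhx, Sox, Gata, Wnt and related families, which pattern embryos and mostly rest in B cells, 109 had a CpG-rich start and only 10 had any promoter region. The 10 CpG-rich regions that these symbols brought in were Sox4, Pou4f1, Gata3, Hoxa4 and 2 at Sox12, each found in 2 or 3 libraries, and 4 at Gatad1, Gatad2a and Gatad2b, each found in all 8 libraries. Gatad1, Gatad2a and Gatad2b are not GATA factors but subunits of chromatin complexes, and entered through their symbols.

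The labelled cell type was visible in the promoter peaks, though thinly. Of 10 B cell markers, 5 (Cd79a, Fcer2a, Ms4a1, Pax5 and Pou2af1) had a promoter region in these lists. No promoter region was found at any of 13 T cell genes or 11 erythroid genes, and at 1 of 14 myeloid genes, Cebpa, in a single library. Pax5, the factor that maintains B cell identity, was the only B cell marker with a CpG-rich promoter region and had 2 of them, at its separate start sites. A gene missing from a list is not shown to be closed, since the lists grow with depth.

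Each library was deposited as a list of MACS2 peaks without read counts. Depth was therefore read from the lists themselves, since the fold and the p of a peak together fix the whole number of fragments at its summit, here called its height, and the background expected there. A height was recovered for 99.7 to 99.8% of the peaks of each list. The genome background ran from 2.76 to 6.47 fragments per kb in Brg1fl/+ and from 3.39 to 6.89 in Brg1fl/fl, and the median height of CpG-rich promoters present in all lists from 25 to 82 and from 23 to 49 fragments. Per summit, without division by the length of the shortest peak, the background was 0.541 to 1.30 fragments in Brg1fl/+ and 0.783 to 1.67 in Brg1fl/fl. Expressed over the background per summit, the median heights were 46.2 to 65.7 in the 4 Brg1fl/+ libraries and 29.3 to 31.9 in the 4 Brg1fl/fl libraries, without overlap. The shortest peak of a list, 195 to 204 bp in Brg1fl/+ and 231 to 243 bp in Brg1fl/fl, moved with the genotype as well, and its part in this difference was not tested.

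Between libraries of the same genotype the heights of the CpG-rich promoters differed by about as much as counting alone would give, or less. The dispersion, which is 1 for counting noise alone, lay between 0.748 and 1.17 for Brg1fl/+ pairs and between 0.807 and 0.870 for Brg1fl/fl pairs, against 1.01 to 1.85 between genotypes, and it was below 1 in 9 of the 12 pairs of the same genotype. Libraries 1 and 2 (0.904) and libraries 3 and 4 (0.748) of Brg1fl/+ lay under 1, as did 2 and 3 (0.866). Libraries 1 and 3 (1.01), 1 and 4 (1.17) and 2 and 4 (1.03) of Brg1fl/+ lay above 1. In Brg1fl/fl, libraries 1 and 2 had 0.807 and libraries 3 and 4 had 0.857, beside 0.822 to 0.870 for the other pairs. The names under which the lists were deposited join libraries 1 and 2, and libraries 3 and 4, in both genotypes. The labels number 4 replicates per genotype and say nothing of mice, so p-values measure the spread between these libraries, which may be technical. For this reason the counts of calls over the class and its sequence groups, and the adjusted p-values of most called promoters, are also given with each pair averaged into 1 value, which leaves 2 against 2.

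The CpG-rich promoters were the most widely shared of the single-gene classes. In Brg1fl/+ libraries 1, 2, 3 and 4, 98.1%, 90.2%, 62.0% and 72.0% of them had a peak, and in Brg1fl/fl libraries 1, 2, 3 and 4, 79.9%, 60.2%, 77.7% and 79.0%. The genotypes overlapped: library 1 of Brg1fl/+ was highest and library 2 of Brg1fl/fl lowest, with library 3 of Brg1fl/+ close above it. The mean was 80.6 ± 16.5% (SD, n = 4) in Brg1fl/+ and 74.2 ± 9.38% (SD, n = 4) in Brg1fl/fl, a difference of -6.41 percentage points that is smaller than the spread between libraries. Without Brg1fl/+ library 1 the difference was -0.636 points, and with the same number of peaks taken from every list it was -0.302 points.

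**Figure D2:**
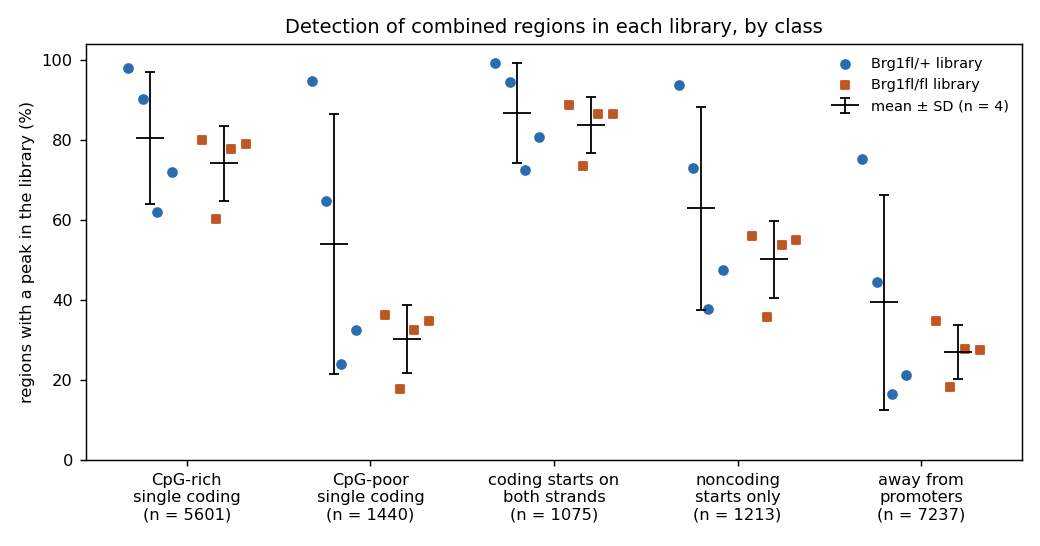
Share of the combined regions of each class with a peak in a library (y axis, %), for the 4 Brg1fl/+ (blue circles) and 4 Brg1fl/fl libraries (orange squares), replicates 1 to 4 from left to right in each group, with the mean ± SD of each genotype. CpG-rich promoters lie between 60.2 and 98.1% in both genotypes, whereas CpG-poor promoters lie between 17.7 and 94.8% and fall to 36.1% or less in every library but Brg1fl/+ 1 and 2.

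All 8 libraries detected 2827 of the CpG-rich promoters (50.5%), against 10.9% of the CpG-poor promoters, 27.0% of the promoters of noncoding transcripts, 8.44% of the distal regions and 62.3% of the promoters with coding starts on both strands. A further 687 were found in 7 libraries, and 422 in 1 library only, 82.9% of the latter in Brg1fl/+ library 1. The strength of the CpG island went along with this share. From the lowest to the highest quintile of CpG observed/expected, the share in all 8 lists climbed from 34.8% through 44.6%, 50.4% and 57.8% to 64.7%. Just inside the limits of the class, 32.1% of 473 regions with a ratio of 0.60 to 0.65 were in all lists, and just outside it 20.2% of 342 regions with a ratio of 0.55 to 0.60. For GC, the shares were 25.8% of 151 regions at 50 to 52% and 11.5% of 78 at 48 to 50%.

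Of the CpG-rich promoters, 1579 (28.2%, with 47.2% of all combined regions) were detected in fewer Brg1fl/fl than Brg1fl/+ libraries, 633 (11.3%, with 16.7%) in more, and 3389 (60.5%) in equally many. Detection in every Brg1fl/+ and no Brg1fl/fl library was seen at 6 promoters (0.404% of all combined regions did so), and the reverse at 0 (0.169%). With the same number of peaks taken from every list these counts were 5 and 6, and without Brg1fl/+ library 1 they were 9 and 4. The 6 included Zfp691, Krr1, which acts in the assembly of the small ribosomal subunit, Espl1 (separase, which opens cohesin at anaphase), Smn1, which assembles snRNPs, and Timm8a1, which serves import into mitochondria. Their heights were modest. Zfp691 had 60, 29, 15 and 31 fragments in Brg1fl/+ libraries 1 to 4, Krr1 had 58, 35, 14 and 22, and Espl1 had 28, 17, 10 and 14. Smn1 and Timm8a1 did not exceed 29 fragments in any library. The count moved with single libraries, being 55 without Brg1fl/+ library 3, 22 without library 4, and 11, 10 and 13 without Brg1fl/fl library 1, 3 or 4. Leaving a library out also loosens the criterion, so a rise is partly fixed by it. In the full set, 67 promoters were detected in 3 Brg1fl/+ and 0 Brg1fl/fl libraries.

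To compare peak heights between the genotypes, the log2 height of each region was centred in each library on the median of the 4559 regions of any class with a height in all 8 lists, so that 0 is the typical tested region and 1 is 2-fold above it. These regions were fitted with limma and adjusted by the Benjamini-Hochberg method over all 4559. The 2827 CpG-rich promoters in all lists could be tested, and the other 2774 could not, so a promoter lost from a list is not counted here. In bulk material, fewer cells with an open promoter and fewer cuts per cell cannot be told apart.

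Most of the tested CpG-rich promoters did not pass the test in either direction. Past an adjusted p of 0.05, 194 (6.86%) were higher in Brg1fl/fl, where 9.19% of all tested regions were, and 97 (3.43%) were lower, where 3.49% were. The median difference, Brg1fl/fl minus Brg1fl/+, was 0.04 over the CpG-rich promoters, beside 0.06 over all tested regions, 0.18 over the distal and -0.07 over the CpG-poor ones. The called differences were small, with a median of 0.48 among the higher and -0.56 among the lower promoters, and 4 reached 1 in either direction. With the library pairs averaged, 117 promoters were higher (background 6.08%) and 60 lower (background 2.13%), and 117 and 59 of these were among the calls from the 8 libraries. Single libraries moved the counts by more than 1.5 times. The higher calls numbered 102 without Brg1fl/+ library 2 and 108, 110 and 123 without Brg1fl/fl library 1, 3 or 4, and the lower calls 57 without Brg1fl/fl library 1 and 59 and 64 without Brg1fl/+ library 2 or 4. The centred heights of the genotypes did not overlap at 266 promoters that were higher (background 11.1%) and 136 that were lower (background 4.72%). An unadjusted p below 0.05 was reached by 717.

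The split into higher and lower depends on the scale, since the values are relative within a library. Heights were also scaled to the genome background of the library per summit, which is not divided by the length of the shortest peak. The median of all tested regions was then -0.81 and that of the CpG-rich promoters -0.83. On this scale 0 were called higher and 2675 lower, and 5 of the tested promoters had a difference above 0. Centred on the distal regions, the medians were -0.12 and -0.14, with 29 called higher and 374 lower, and quantile normalization gave 90 and 123. The fold as deposited gave 79 and 66. All differences below are relative to the median tested region.

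**Figure D3:**
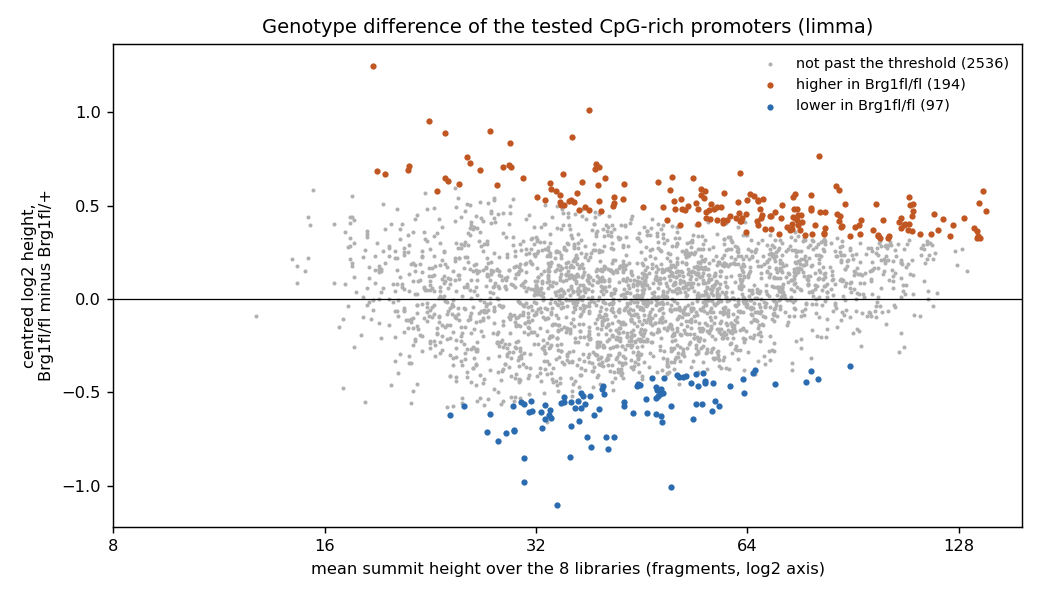
Difference in centred log2 height, Brg1fl/fl minus Brg1fl/+ and relative to the median tested region (y axis), against the mean summit height over the 8 libraries in fragments (x axis, log2 scale), for the 2827 tested CpG-rich promoters. The 194 promoters called higher (orange) reach across the tall peaks on the right, with a median height of 63.8 fragments, and the 97 called lower (blue) have a median of 42.75, near the 44 of the promoters not called (grey).

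The promoters of lowest adjusted p among those higher in Brg1fl/fl belonged to genes of varied function. Pigv, a mannosyltransferase of GPI anchor synthesis, had centred log2 heights of 0.22, 0.53, 0.94 and 0.53 in Brg1fl/+ and 1.39, 1.18, 1.42 and 1.29 in Brg1fl/fl. Every Brg1fl/fl library stood above every Brg1fl/+ library, and the difference was 0.77 ± 0.13 (SE; adjusted p = 5.09e-05 by limma, 3.15e-05 with pairs averaged). Eif2s3x, the X-linked gene of the gamma subunit of eIF2, which carries the initiator tRNA to the ribosome, was a low peak in both groups at -1.76, -1.47, -2.20 and -2.17 in Brg1fl/+ and -0.51, -0.21, -1.14 and -0.75 in Brg1fl/fl. It had the largest difference of the class, 1.25 ± 0.24 (SE; adjusted p = 0.000373 by limma), from 5 to 23 fragments in Brg1fl/+ and 19 to 33 in Brg1fl/fl. The centred heights of the groups did not overlap, while the ranges of fragments did.

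The shared promoter of Mrps6, a protein of the mitochondrial ribosome, and Slc5a3, a myo-inositol transporter, listed under the overlapping gene model Gm49711, had values of -0.43, -0.74, -1.06 and -0.71 in Brg1fl/+ and 0.00, 0.35, 0.36 and 0.39 in Brg1fl/fl, a difference of 1.01 ± 0.17 (SE; adjusted p = 5.63e-05 by limma). Its peak cannot be assigned to 1 of these genes. Zfand3 was higher by 0.87 ± 0.16 (adjusted p = 0.000328 by limma), Hnrnpa0, an RNA-binding protein, by 0.60 ± 0.12 (adjusted p = 0.000529) and Scaf11, a factor that links splicing to transcription, by 0.58 ± 0.11 (adjusted p = 0.000225), and in none of the 3 did the genotypes overlap. Scaf11 was also among the tallest peaks of the class, at 1.40, 1.19, 1.58 and 1.52 in Brg1fl/+ and 2.00, 1.93, 2.01 and 2.07 in Brg1fl/fl. Its run of GC boxes, which is printed above, lies outside the 100 bp to either side of its summit.

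Among the promoters with lower peaks in Brg1fl/fl, H2-Q7 had the lowest adjusted p. This gene encodes a nonclassical MHC class I molecule, Qa-2, and has close copies beside it, so that reads may be shared between them. Its values were 0.31, 0.62, 0.94 and 0.66 in Brg1fl/+ and -0.16, -0.65, -0.53 and -0.14 in Brg1fl/fl, without overlap, and the difference was -1.01 ± 0.15 (SE; adjusted p = 1.52e-05 by limma, 2.25e-06 with pairs averaged). Glt28d2 had 0.05, 0.03, 0.33 and 0.00 in Brg1fl/+ and -0.70, -0.76, -1.14 and -1.39 in Brg1fl/fl, a difference of -1.10 ± 0.18 (adjusted p = 5.19e-05 by limma). The gene model Gm37240 also starts at this region, so the peak cannot be assigned to 1 of these genes. For Ppara, a nuclear receptor that drives fatty acid oxidation, the values were -0.31, -0.32, 0.18 and 0.15 against -0.80, -1.14, -0.69 and -1.58, a difference of -0.98 ± 0.20 (adjusted p = 0.000831 by limma). In each of these 3 all Brg1fl/fl libraries were below all Brg1fl/+ libraries.

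The same separation was seen at Gpr157, an orphan G protein-coupled receptor, at Washc1, a subunit of the WASH complex that builds actin on endosomes, and at Smim15, a small membrane protein. Their differences were -0.85 ± 0.18, -0.84 ± 0.18 and -0.79 ± 0.17 (SE), with adjusted p-values of 0.0016, 0.00154 and 0.00154 by limma. All 12 promoters named so far in the 2 directions passed the test with pairs averaged and after correction for GC as well. On the fold as deposited, Scaf11 (adjusted p = 0.0773 by limma) and Washc1 (adjusted p = 0.108) did not pass.

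**Figure D4:**
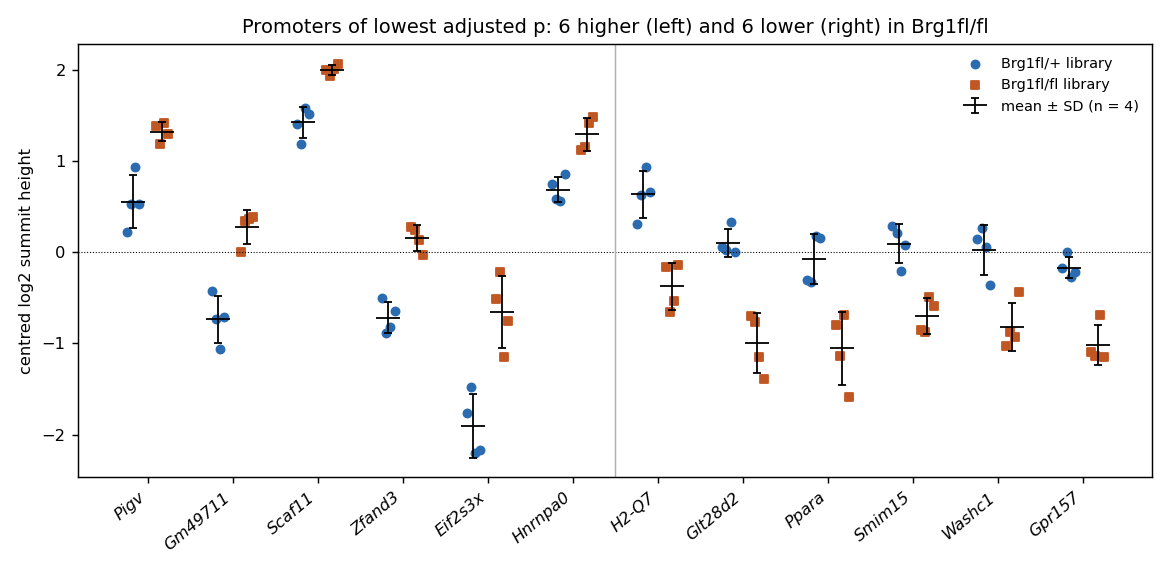
Centred log2 summit height (y axis; 0 is the median tested region of the library) of the 6 promoters of lowest adjusted p in each direction, in the 4 Brg1fl/+ (blue circles) and 4 Brg1fl/fl libraries (orange squares), replicates 1 to 4 from left to right, with mean ± SD. No promoter has overlapping groups, and Eif2s3x shows the widest step, from a mean of -1.90 to -0.65.

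The tallest peaks of the class by mean log2 height were Scaf11, Add3 (gamma-adducin, a protein of the membrane skeleton), Rnf44, Jund (an AP-1 subunit) and Dnpep (an aspartyl aminopeptidase), with mean heights of 136 to 140 fragments. All 5 passed the test as higher relative to the median tested region. By quantile normalization only Scaf11 did, at 0.28 (adjusted p = 0.0464 by limma). There Rnf44 was at 0.16 (adjusted p = 0.305 by limma), Add3 at 0.01, Jund at 0.06 and Dnpep at -0.0035. For Rnf44 the centred heights were 1.39, 1.55, 1.43 and 1.54 in Brg1fl/+ and 2.08, 1.81, 1.92 and 1.99 in Brg1fl/fl, a difference of 0.47 ± 0.10 (SE; adjusted p = 0.00205 by limma, 0.016 with pairs averaged). The other 3 differed by 0.32 to 0.36 and did not pass with pairs averaged, where their adjusted p-values by limma were 0.117 for Add3, 0.0761 for Jund and 0.12 for Dnpep. At the other end stood Phf21a, a reader of unmethylated histone H3, Ramac, which activates the mRNA cap methyltransferase, and Keap1, the adaptor that keeps NRF2 low. These had mean heights of 14.6, 14.4 and 12.8 fragments and differences of 0.18 ± 0.24, 0.21 ± 0.25 and -0.09 ± 0.26 (SE), none past the test. The widest regions, at Ppp2r3d (2968 bp), Ywhaz (1813 bp) and Midn (1787 bp), did not pass it either, with differences of 0.11, 0.25 and -0.31.

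CpG content graded the difference. Across quintiles of CpG observed/expected among the tested promoters, the median difference went from -0.04 through 0.00, 0.04 and 0.07 to 0.12. The number called higher went from 16 through 27, 36 and 44 to 71, and the number called lower from 38 through 20, 21 and 9 to 9, with 565 or 566 promoters in each quintile. With pairs averaged the higher calls were 8, 17, 20, 21 and 51 and the lower 27, 12, 11, 5 and 5. GC content showed the same order, with medians of -0.04, 0.02, 0.03, 0.05 and 0.12. Width did so too, from -0.08 to 0.18, and the 3 properties are linked. Unlike GC and CpG content, width is the span of the peaks called in these same lists. It is therefore not independent of the heights compared. Promoters called higher had a median ratio of 0.888 and a median width of 834.5 bp, those called lower 0.776 and 628 bp, and those not called 0.824 and 698 bp. Peak height also differed with CpG content. The median centred log2 height was -0.09 in the lowest quintile of CpG observed/expected and 0.13 in the highest. Whether the gradient holds under quantile normalization was not tested.

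The gradient was present in every library and steeper in Brg1fl/fl. The mean centred log2 height of the highest quintile of CpG observed/expected exceeded that of the lowest by 0.14, 0.12, 0.11 and 0.12 in Brg1fl/+ libraries 1 to 4 and by 0.31, 0.26, 0.28 and 0.30 in Brg1fl/fl libraries 1 to 4. The groups did not overlap. For GC the steps were 0.16 to 0.24 against 0.32 to 0.39, and for width 0.18 to 0.29 against 0.41 to 0.50. Among the tested regions outside the class the step with GC was 0.41 to 0.67 in Brg1fl/+ and 0.38 to 0.48 in Brg1fl/fl, where the ranges overlapped. After heights were corrected for GC within each library, a correction chosen after the data were seen, 157 promoters were higher (background 8.25%) and 98 lower (background 3.6%), of which 149 and 89 were called without it, and the quintiles of CpG observed/expected still ran from -0.03 to 0.08 in the median. The shortest peak of a list and the median height over background moved with the genotype too, as given above, and their part in this gradient was not tested.

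The CCAAT box ran the other way. It was present at 59 of the 97 promoters called lower (60.8%), 53 of the 194 called higher (27.3%) and 969 of the 2536 not called (38.2%). The median difference was -0.02 over the 1081 tested promoters with a CCAAT box near the summit and 0.08 over the 1746 without one. It shifted with the number of copies as well. Of promoters with none, 8.08% were called higher and 2.18% lower, with 1 copy 6.07% and 3.57%, and with 2 or more copies 3.65% and 7.49%. With pairs averaged the calls in these groups of 1746, 560 and 521 promoters were 89 higher and 27 lower, 21 and 13, and 7 and 20. Within quintiles of GC content the order was kept, and the median was lower with the box than without it in all 5, from -0.10 against 0.03 in the lowest quintile to 0.06 against 0.14 in the highest. The shares among calls were similar with pairs averaged (55% of the lower, 23.9% of the higher) and after GC correction (57.1% and 25.5%).

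Promoters with a CCAAT box had taller peaks in both genotypes, by 0.25 to 0.31 in mean centred log2 height in the Brg1fl/+ libraries and by 0.18 to 0.21 in the Brg1fl/fl libraries. These ranges did not overlap. For the GC box the step was 0.24 to 0.27 in Brg1fl/+ and 0.18 to 0.20 in Brg1fl/fl, again without overlap, yet its share hardly differed between promoters called higher (76.3%), lower (77.3%) and not called (79.3%). The ETS motif was found at 16.0%, 12.4% and 18.4% of these groups, and the CHR at 3.61%, 6.19% and 4.46%. Of the 18 motifs, 4 had ranges that did not overlap between genotypes, the others being BANP and PU.1, with 44 and 40 tested promoters. These are descriptions without a test, and say nothing of whether NFY or SP1 was bound.

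**Figure D5:**
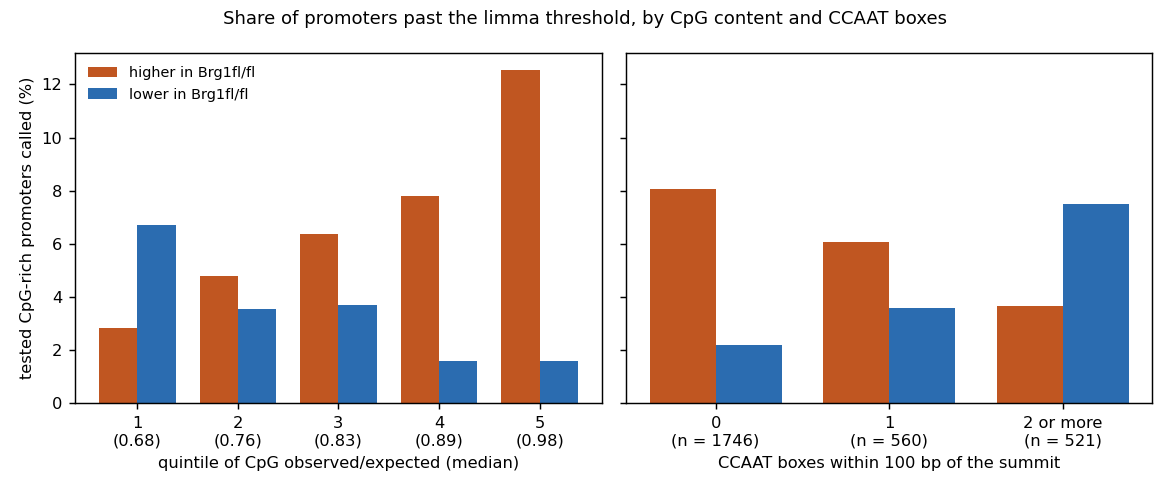
Share of tested CpG-rich promoters past the limma threshold (y axis, %) as higher (orange) or lower (blue) in Brg1fl/fl relative to the median tested region, by quintile of CpG observed/expected with the median ratio of each quintile (left) and by the number of CCAAT boxes within 100 bp of the summit (right). The higher share climbs from 2.83 to 12.5% with CpG content and drops from 8.08 to 3.65% with CCAAT boxes, and the lower share does the reverse, from 6.71 to 1.59% and from 2.18 to 7.49%.

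Of 49 CpG-rich regions at genes of cytosolic ribosomal proteins, 40 (81.6%) were in all 8 lists, against 50.5% of the class. 2 of the 40 (5.0%) were called higher by limma and 0 lower (5 and 1 at an unadjusted p below 0.05), with a median difference of 0.05. For this and the lists that follow, the shares of all tested regions to read beside the counts are 9.19% higher and 3.49% lower. Rps14, a protein of the small subunit, had values of -0.26, -0.89, -0.44 and -0.08 in Brg1fl/+ and 0.20, 0.35, 0.28 and 0.10 in Brg1fl/fl, a difference of 0.65 ± 0.16 (SE; adjusted p = 0.00714 by limma, 0.00974 with pairs averaged). The groups did not overlap. Rps19, also of the small subunit, was higher by 0.42 ± 0.12 (adjusted p = 0.0212 by limma, 0.0515 with pairs averaged). Of 27 regions at genes of mitochondrial ribosomal proteins, 7 (25.9%) were in all 8 lists and could be tested, with a median difference of -0.13, and the Mrps6 promoter described above was the only one called.

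Translation initiation factors were the list with the most calls. Of 37 regions, 21 could be tested, 6 were higher (28.6%, with 9.19% of all tested regions; Eif2s3x, Eif4b, Eif4a2, Eif3b, Eif3d and Eif5a) and 1 was lower (4.76%, with 3.49%; Eif2b2), with a median difference of 0.09 beside 0.04 over the class. Eif4b, the cofactor of the eIF4A helicase, had values of 0.43, 0.75, 0.48 and 0.53 in Brg1fl/+ and 1.09, 1.27, 1.07 and 0.95 in Brg1fl/fl, a difference of 0.55 ± 0.12 (SE; adjusted p = 0.00199 by limma, 0.00568 with pairs averaged). Every Brg1fl/fl library was above every Brg1fl/+ library. Eif4a2, the helicase itself, was higher by 0.61 (adjusted p = 0.0268 by limma, 0.049 with pairs averaged). Eif3b, Eif3d and Eif5a lost the call with pairs averaged (adjusted p = 0.0622, 0.0576 and 0.107 by limma), as did Eif2b2, of the exchange factor that reloads eIF2 with GTP, at -0.58 (0.0317, then 0.0636).

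The other housekeeping lists held few calls. Of 36 regions at genes of the respiratory chain, 16 were tested and 1 was called, Ndufs7 of complex I, at 0.51 ± 0.16 (SE; adjusted p = 0.0296 by limma, 0.047 with pairs averaged), and the list median was 0.02. Of 23 regions at proteasome genes, 11 were tested with a median of -0.06, and Psma6, an alpha subunit of the 20S core, was lower by -0.45 ± 0.14 (adjusted p = 0.0273 by limma, 0.0522 with pairs averaged). At genes of splicing proteins 7 of 17 regions were tested with a median of 0.13, 0 called by limma and 0 at an unadjusted p below 0.05. Srsf1, Srsf6 and Snrpd1, the 3 of lowest p, differed by 0.28 ± 0.16, 0.23 ± 0.19 and 0.24 ± 0.22 (SE).

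The lists of cell cycle genes had medians below that of the class, and few calls. Other lists lay below it too, among them mitochondrial ribosomal proteins at -0.13 and the proteasome at -0.06. Of 23 regions at genes of DNA replication 11 were tested, with a median of -0.13, and 1 was called. This was Cdc6, which loads the MCM helicase onto origins, at 0.36, 0.73, 0.76 and 0.87 in Brg1fl/+ and 0.25, -0.21, 0.10 and 0.19 in Brg1fl/fl, a difference of -0.60 ± 0.14 (SE; adjusted p = 0.00372 by limma, 0.00546 with pairs averaged). No Brg1fl/fl library reached the lowest Brg1fl/+ value. Mcm2, of the helicase, had -0.42 ± 0.17 (adjusted p = 0.103) and Pold2, of polymerase delta, -0.22 ± 0.15 (adjusted p = 0.36), neither past the test.

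Of 31 regions at genes of mitosis 11 were tested, with a median of -0.08, and 1 was called, Ccnb1, the gene of cyclin B1, which takes cells into mitosis. Its values were -0.20, 0.24, 0.00 and -0.42 in Brg1fl/+ and -0.91, -0.65, -0.44 and -0.93 in Brg1fl/fl, a difference of -0.64 ± 0.18 (SE; adjusted p = 0.0154 by limma, 0.0258 with pairs averaged). The groups lay apart by a narrow margin. Kif23 and Cenpf, of the central spindle and the kinetochore, had differences of -0.39 ± 0.15 and -0.32 ± 0.14 (adjusted p = 0.0895 and 0.125 by limma) with groups that did not overlap. Espl1 is the mitotic gene found only in Brg1fl/+ lists, and 10 of the 31 regions (32.3%, with 28.2% of the class) were detected in fewer and 7 (22.6%, with 11.3%) in more Brg1fl/fl libraries.

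The SWI/SNF complex itself was represented by 18 regions, of which 9 were tested, 2 were higher by limma and 0 lower (4 and 0 at an unadjusted p below 0.05), with a median of 0.12. Brd7, a subunit of the PBAF form, had values of -0.29, -0.12, 0.00 and 0.12 in Brg1fl/+ and 0.64, 0.24, 0.70 and 0.47 in Brg1fl/fl, a difference of 0.58 ± 0.14 (SE; adjusted p = 0.00575 by limma, 0.0106 with pairs averaged). Actb, which encodes the beta-actin of the cytoskeleton and of the complex, was higher by 0.34 ± 0.11 (adjusted p = 0.0364 by limma, 0.0988 with pairs averaged). At Smarca4 the promoter stayed open in every library, with 0.77, 0.68, 0.90 and 0.81 in Brg1fl/+ and 1.16, 0.83, 1.25 and 1.16 in Brg1fl/fl. The groups overlapped and the difference of 0.31 ± 0.12 (SE) did not pass the test (adjusted p = 0.0767 by limma). Since the peak lies at the start of the gene, it does not check the deletion. Smarca2, which encodes Brm, the other ATPase of these complexes, had 71, 44, 27 and 35 fragments in the Brg1fl/+ libraries and 30, 25 and 27 in Brg1fl/fl libraries 1, 3 and 4, with no peak listed in library 2, and so was not tested.

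Of 12 CpG-rich regions at B cell genes 5 were tested, with a median of 0.03, and Irf8, a transcription factor of germinal center B cells and myeloid cells, was lower, with -0.24, -0.25, -0.35 and -0.13 in Brg1fl/+ against -0.65, -0.55, -0.81 and -1.22 in Brg1fl/fl, a difference of -0.56 ± 0.18 (SE; adjusted p = 0.0346 by limma, 0.0674 with pairs averaged). The genotypes did not overlap. Pax5 at its stronger region (0.08 ± 0.14), Tcf3 (0.17 ± 0.15) and Tcf4 (-0.18 ± 0.17), the E proteins of the lineage, did not pass the test. Of 15 regions at NF-kB and AP-1 genes 9 were tested, with a median of -0.03, and 2 were higher. Rel had 0.98, 1.21, 1.12 and 1.08 in Brg1fl/+ and 1.51, 1.73, 1.58 and 1.76 in Brg1fl/fl, a difference of 0.55 ± 0.11 (SE; adjusted p = 0.000556 by limma, 0.00358 with pairs averaged), and no values overlapped. The other was Jund, whose groups overlapped. Rela was at 0.33 ± 0.15 (adjusted p = 0.144).

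Among 16 genes that the study discusses, 12 had a CpG-rich promoter region, and of their 13 regions 5 were tested and 0 called by limma, with 1 (Smarca4) at an unadjusted p below 0.05. The cell cycle regulators Cdkn3 and E2f8 were at -0.03 ± 0.14 and 0.08 ± 0.13 (SE). For Cdkn3 the values were 0.11, -0.03, 0.38 and 0.12 in Brg1fl/+ and 0.03, 0.24, 0.00 and 0.19 in Brg1fl/fl, with the groups mixed. Several of the remaining regions were low peaks near the limit of detection. Myc was found in Brg1fl/+ libraries 1 and 2 (29 and 15 fragments) and in all 4 Brg1fl/fl libraries (29, 12, 25 and 14). Bach2, a repressor of plasma cell differentiation, was found in 3 Brg1fl/+ libraries and 1 Brg1fl/fl library with at most 20 fragments, Ncor1 in 2 and 1, Prdm1, the plasma cell factor Blimp-1, in 2 and 0, Foxp1 in 1 and 1, and E2f4 in 1 and 0. At such heights a missing peak was not detectable at this depth and is not shown to be absent.

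On the X chromosome 135 regions belonged to the class, of which 40 were tested. Their median difference was 0.10, beside 0.04 on the other chromosomes, and 4 were called higher (10.0%, beside 9.19% of all tested regions) and 0 lower, Eif2s3x among the 4. With pairs averaged 2 were higher. On the Y chromosome there was 1 region. The study's methods do not give the sex of the mice, and its part in the values on X, Eif2s3x included, was not tested.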

How the data were processed

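ATAC-seq peak lists of 8 libraries, 4 per genotype as the sample labels give them, were analysed, and 8 RNA-seq libraries were not analysed here. Per the study's methods, the authors used Bowtie2 with mm10, then MACS2 on every library by itself, so that replicates were not pooled. Versions, options, the Tn5 shift and the handling of duplicates are not given in the sources used here. The deposited columns used are the fold enrichment at the summit (a ratio to background in the same library) and its −log10 p and −log10 q, and all of them depend on depth.

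The whole number of fragments at each summit was solved from its fold and −log10 p with a tolerance of 0.002 in −log10 p. The genome background of a library per summit is the lowest background of its peaks, and heights were scaled by this value. The values per kb divide it by the length of the shortest peak of the list. Start sites came from GENCODE vM21 on GRCm38. Log2 heights, centred on the median of the 4559 regions with a height in all lists, were fitted with limma (version 3.58.1) with a mean-variance trend, 4 libraries against 4, and adjusted by Benjamini-Hochberg over all 4559, with a threshold of 0.05. The steps were tested on simulated data. The study compared read coverage with a count model. The lists hold no counts, so the comparison was made on heights. Precision depends on depth and on having 4 libraries a genotype.

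No pairing of the libraries by replicate number was seen. The correlations of the deviations from the genotype means were -0.02, -0.03, 0.01 and -0.04 for numbers 1 to 4. These deviations were about as large as counting alone would give, so a pairing could have gone unseen. The members, lists, motifs and alternatives were chosen with earlier results of these data known. The text names the 6 called promoters of lowest adjusted p in each direction, the 5 tallest and 3 lowest peaks, up to 6 found in 1 genotype only, the study genes, up to 3 of lowest p in each list and the 3 widest. Other calls in a list, and members of short counts, are named after their values were seen. Some items are not reported here. Alternatives were stricter peak, GC and CpG limits, other scalings and start sites, peak lists of equal length, pairs of libraries averaged, a replicate block, each library left out, and, added after seeing the data, a GC correction by a running median over 401 regions. R 4.3.3, samtools 1.23.1 and Python 3.11.15 were used, the latter with pysam 0.24.0, scipy 1.17.1, pandas 2.3.3, numpy 2.4.6 and matplotlib 3.10.9.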

Additional observations from a re-analysis of the deposited data

Results flagged for a closer look

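Single libraries stood apart from the other 3 of their genotype in 10 of the 134 groups of 4 examined, where chance alone gives about 1 in 20. Brg1fl/fl library 2 had the lowest share of CpG-rich promoters detected, 60.2% against 77.7 to 79.9% in the others, and the narrowest peaks on them, with a median of 404 bp against 494 to 503 bp. Its background of 3.39 fragments per kb was also the lowest of that genotype.

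Among promoters called between genotypes, Gm49711, the shared start of Mrps6 and Slc5a3, had a centred log2 height of 0.00 in Brg1fl/fl library 1 against 0.35 to 0.39 in the others, Glt28d2 had 0.33 in Brg1fl/+ library 3 against 0.00 to 0.05, and Gpr157 had -0.69 in Brg1fl/fl library 3 against -1.14 to -1.10. In all 3 the odd library stayed on its own side of the other genotype. The tall Add3 promoter had 1.94 in Brg1fl/fl library 3 against 1.87 to 1.88.

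The low peaks at Phf21a (-1.26 in Brg1fl/+ library 4 against -1.76 to -1.72) and Keap1 (-2.22 in Brg1fl/fl library 3 against -1.69 to -1.65) had single libraries apart on 15 and 9 fragments. E2f8 had 0.58 in Brg1fl/fl library 2 against 0.28 in each of the others, and Kif23 had 0.17 in Brg1fl/+ library 1 against 0.11 to 0.12.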

How the results depend on the processing

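Precision is limited by 4 libraries a genotype, which may hold 2 independent ones, by depth, and by peaks called per library, so that only promoters in all lists enter the test. The cause of each shift below was not tested. Other scalings gave, for promoters called higher and lower and their median difference, 0, 2675 and -0.83 (genome background), 29, 374 and -0.14 (distal regions), 90 higher and a median of -0.020 (quantile normalization) and 79 higher and 0.018 (deposited fold). Averaging pairs gave 117 and 60, limma without the trend 117 higher, and regions in at least 3 lists of each genotype 157 lower with a median of 0.012. With GC of at least 55% and a ratio of at least 0.75, 3421 promoters remained, 55 lower, with a median of 0.070 and 1 found only in Brg1fl/+. With each library left out, the higher calls ranged from 102 to 162 (102 without Brg1fl/+ 2; 108, 110 and 123 without Brg1fl/fl 1, 3 and 4), the lower from 57 to 105 (57 without Brg1fl/fl 1, 59 and 64 without Brg1fl/+ 2 and 4), the median from 0.012 (without Brg1fl/+ 3) to 0.039, the promoters only in Brg1fl/+ from 6 to 55 (without Brg1fl/+ 3) and those only in Brg1fl/fl from 0 to 4 (without Brg1fl/+ 1). Counts of promoters found in 1 genotype only rise partly by their definition when a library is left out. Equal list lengths gave 6 only in Brg1fl/fl, and peaks covering 50% of a region 2 only in Brg1fl/+ and 1 only in Brg1fl/fl. The replicate block gave 184 higher and 96 lower. No pairing by replicate number was seen, though counting noise could hide one.

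The naming rules given above chose 28 promoters past the test, which were followed through the alternatives. Eif4a2, Eif3b, Eif5a and Eif2b2, named after their values were seen, are not among them. Of the 28, 16 changed sign on the background scale: Pigv -0.11, Scaf11 -0.29, Zfand3 -0.0028, Hnrnpa0 -0.27, Add3 -0.54, Rnf44 -0.40, Jund -0.51, Dnpep -0.55, Rps14 -0.22, Rps19 -0.46, Ndufs7 -0.36, Eif4b -0.33, Eif3d -0.45, Brd7 -0.29, Actb -0.53 and Rel -0.32. Dnpep also did so by quantile normalization (-0.0035). The other values for the 28 kept their direction, 535 on the same side of the threshold and 100 no longer past it.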
